A study of Mus musculus with 14 samples.

Results

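The genotype by diet interaction in mouse liver asked whether the expression difference between homozygous and heterozygous floxed Lmna livers was itself different on a high fat diet and on normal chow. It was computed per gene as the KO minus HET difference on HFD, less the KO minus HET difference on NC, on the log2 scale, so that a positive value is a larger or less negative difference on HFD. Members of the contrast were 12 of the 14 arrays of the series, each hybridised with liver RNA of 1 male C57BL/6 mouse, with 3 arrays in each of 4 groups. Livers labelled LMNA flx/flx; Alb-cre+ on High Fat Diet (KO on HFD) came from mice aged 35.3 weeks, and those labelled LMNA flx/+; Alb-cre+ on the same diet (HET on HFD) from mice aged 30 to 30.4 weeks. On Normal Chow, KO mice were 38.9 weeks old and HET mice 24 to 26.4 weeks old. HFD was the Surwit diet with drinking water that held 42 g/L of sugar, 55% of it fructose and 45% sucrose, and each diet was given for 14 weeks. Every mouse carried Alb-Cre. The remaining 2 arrays, from Cre-positive mice without a floxed allele on NC, entered only the estimate of the spread, and what the calls were without them is given with the leave-outs.

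Lmna encodes lamins A and C, intermediate filament proteins that line the inner nuclear membrane, carry mechanical load and tether chromatin. Alb-Cre recombines floxed alleles in hepatocytes and, through their shared progenitors, in bile duct cells. Kupffer, stellate, endothelial and immune cells of these livers therefore keep the gene, and whole-liver RNA mixes all of them. Diets rich in fat and sugar load hepatocytes with triglyceride and engage lipid synthesis, fatty acid oxidation and xenobiotic metabolism, the programmes in which a genotype effect could depend on diet.

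Array medians of the log2 values lay between 2.21 and 2.30, and Pearson's r between arrays was 0.989 to 0.994 within groups and 0.980 to 0.994 across groups. The hepatocyte products Alb and Ttr were close to the top of the scale on all 12 arrays, at 13.36 to 13.47 and 13.16 to 13.26. The hepatocyte genes Apoa1 and Cps1 ranged more widely, at 10.92 to 11.57 and 12.28 to 12.99. Both were lower in KO than in HET livers on HFD (limma, adjusted p = 0.0318 and 0.00433). Lmna measured 3.90, 4.07 and 3.99 in KO livers on HFD, against 4.07, 4.07 and 4.30 in HET livers on HFD. On NC it measured 4.09, 3.78 and 3.67 in KO livers, against 4.29, 4.40 and 4.25 in HET livers. The Lmna interaction was 0.31 ± 0.17 (SE, limma, adjusted p = 0.598), and neither genotype difference passed (adjusted p = 0.517 on HFD and 0.0823 on NC). The values are dim, the labels do not name the exon that Cre removes, and non-hepatocytes keep the gene, so this probe set checks the genotype labels only weakly. Each array is a separate mouse by its label, and p-values measure the spread between these mice.

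Across 22180 genes, 8 passed the interaction test at an adjusted p under 0.05, which is 0.0361% of the genes tested. Of these, 7 interactions were positive (0.0316% of genes) and 1 was negative (0.00451%). The positive ones were Slc16a5, Kmt5a, Pqlc3, Guca2b, Tmem79, Gstm3 and Nqo1, and the negative one was Tnfaip8l1. At an unadjusted p under 0.05 there were 2187 genes (9.86%), 1166 positive (5.26%) and 1021 negative (4.6%). Over all genes 11121 interactions were positive and 11059 negative, with a median of 0.000906 and a median SE of 0.218. The absolute interaction exceeded 1 in 489 genes and 2 in 37 genes, so most interactions of that size did not pass. In simulated data of the same size, 48% of genes given an interaction of 1 were recovered and 96% of those given 2. Many more genes passed there than in the real data, which makes the adjusted threshold easier to reach. These shares therefore do not carry over to the real data.

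The 2 genotype differences that make up the interaction share no array. On HFD, 1677 genes differed between KO and HET livers (7.56% of genes; 1221 higher and 456 lower in KO), and on NC 426 did (1.92%; 320 higher and 106 lower). Both differences passed for 284 genes, which is 16.9% of the HFD calls and 66.7% of the NC calls, and 282 of the 284 had the same sign. Among these 284 genes the absolute difference was larger on NC for 119. Pearson's r between the 2 differences was 0.59 across genes, which are not independent replicates. The difference in the number of calls does not itself show that genes respond differently on the 2 diets, and only the 8 genes above passed the test of that difference.

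**Figure D1:**
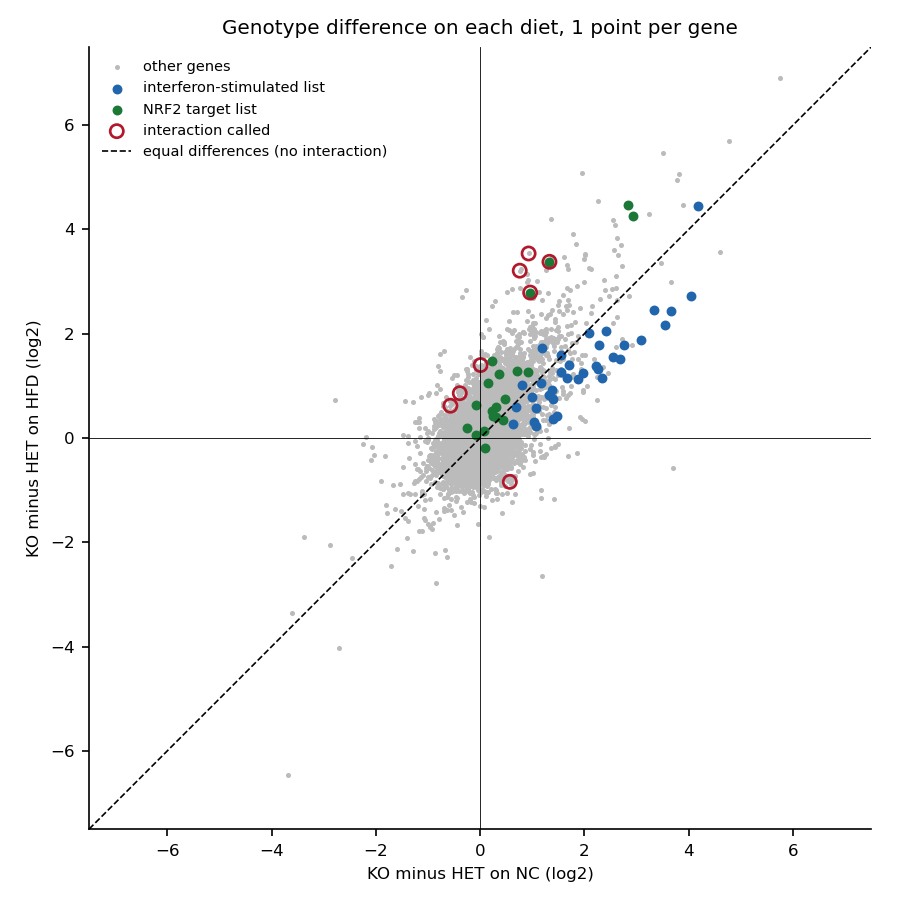
KO minus HET on HFD (vertical axis, log2) against KO minus HET on NC (horizontal axis, log2), with 1 point for each of 22180 genes; the dashed line marks equal differences. Red circles mark the 8 called genes, of which 7 lie above the line and Tnfaip8l1 below it, while most interferon-stimulated list members (blue) lie below the line and most NRF2 list members (green) above it.

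The diet differences gave few calls in either genotype. HFD against NC passed for 70 genes in KO livers (0.316%; 46 higher and 24 lower on HFD) and for 44 in HET livers (0.198%; 11 higher and 33 lower). In all, 8 genes passed in both, which is 11.4% of the KO calls and 18.2% of the HET calls, and 6 of them had the same sign. Pearson's r between the 2 diet differences was 0.10 across genes, against 0.59 for the 2 genotype differences. Among the 8 genes called for the interaction, the absolute diet difference was larger in HET livers for 7 and larger in KO livers for 1, Guca2b. Some sizes were nearly equal, at 0.62 in KO and -0.63 in HET livers for Kmt5a and 0.67 and -0.72 for Pqlc3. Over all genes the absolute diet difference was larger in HET livers for 49.7%. The 2 diet differences had opposite signs for 7 of the 8 genes and for 48.4% of all genes. The 8 were chosen by the interaction, so these counts are a description. Mean age also differed between the diets, at 30.1 weeks on HFD and 25.6 on NC in HET mice. In KO mice it was 35.3 weeks on HFD and 38.9 on NC. Effects of age and of diet cannot be told apart in these differences.

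Slc16a5 encodes a monocarboxylate transporter family member, MCT6, and had the smallest interaction p of all genes. Its log2 values were 8.44, 8.73 and 8.95 in KO livers on HFD, against 4.89, 5.41 and 5.21 in HET livers on HFD. On NC they were 7.58, 7.49 and 7.44 in KO livers, against 6.75, 6.73 and 6.23 in HET livers. No 2 of the 4 groups overlapped, and the KO groups were the highest on both diets. KO livers were 11.6-fold higher than HET livers on HFD and 1.91-fold higher on NC, an interaction of 2.61 ± 0.28 (SE; 95% interval 2.01 to 3.21; limma, adjusted p = 0.00908). HFD went with opposite changes in the 2 genotypes: Slc16a5 rose by 1.21 in KO livers (adjusted p = 0.0272) and fell by 1.40 in HET livers (adjusted p = 0.0106). A second, dimmer probe set of Slc16a5 gave 1.97 ± 0.26 (unadjusted p = 4.23e-06), and the other 7 called genes had 1 probe set each.

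Nqo1 and Gstm3 encode detoxifying enzymes, a quinone reductase and a mu-class glutathione S-transferase, and both are classical targets of the oxidative stress factor NRF2. Nqo1 measured 8.54, 8.27 and 8.94 in KO livers on HFD, against 5.27, 5.20 and 5.15 in HET livers on HFD. Its values on NC were 7.47, 7.86 and 8.26 in KO livers, against 6.72, 6.59 and 6.31 in HET livers. All 6 KO values were above all 6 HET values, and the HET livers on HFD were the lowest group by more than 1 log2 unit. KO livers were 10.4-fold higher on HFD and 2.51-fold higher on NC, an interaction of 2.05 ± 0.31 (limma, adjusted p = 0.0450). In HET livers Nqo1 fell by 1.33 on HFD (adjusted p = 0.0326), while its difference in KO livers was 0.72 (adjusted p = 0.221).

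Gstm3 measured 10.93, 10.84 and 11.10 in KO livers on HFD, against 8.27, 8.15 and 8.09 in HET livers on HFD. On NC the values were 10.73, 10.99 and 11.12 in KO livers, against 10.38, 10.11 and 9.46 in HET livers. The KO livers held nearly the same level on both diets, and their ranges overlapped. KO livers were 6.91-fold higher than HET livers on HFD and 1.95-fold higher on NC, an interaction of 1.82 ± 0.27 (limma, adjusted p = 0.0450). The diet difference was 0.01 in KO livers, whereas Gstm3 fell by 1.81 on HFD in HET livers (adjusted p = 0.00128). Mu-class transferases are close relatives, and an array may carry signal from more than 1 of them.

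Guca2b encodes uroguanylin, a peptide ligand of guanylate cyclase C known mainly from the gut. It measured 5.36, 5.12 and 5.36 in KO livers on HFD, against 1.96, 2.25 and 2.00 in HET livers on HFD. On NC the levels were 2.68, 2.51 and 3.70 in KO livers, against 2.14, 2.25 and 2.20 in HET livers. Both HET groups sat at the level of the array medians, and the KO livers on HFD lay above all other arrays. The interaction was 2.45 ± 0.34 (limma, adjusted p = 0.0375), with a difference of 3.21 on HFD and 0.76 on NC (adjusted p = 9.49e-06 and 0.165). It rose by 2.32 on HFD in KO livers (adjusted p = 0.00179), against a difference of -0.13 in HET livers (adjusted p = 0.913). Of the 3 KO livers on NC, 1 had 3.70 and the others 2.51 and 2.68.

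Kmt5a, a histone H4 methyltransferase that acts in the cell cycle and in chromatin compaction, had genotype differences of opposite sign on the 2 diets. It measured 10.18, 10.27 and 10.21 in KO livers on HFD, against 9.28, 9.41 and 9.39 in HET livers on HFD. On NC it measured 9.63, 9.56 and 9.60 in KO livers, against 10.02, 10.13 and 9.81 in HET livers. KO livers lay above HET livers on HFD and below them on NC, with no overlap on either diet. The difference was 0.86 on HFD (adjusted p = 0.000403) and -0.39 on NC (adjusted p = 0.0933), an interaction of 1.25 ± 0.15 (limma, adjusted p = 0.0171). Kmt5a rose by 0.62 on HFD in KO livers (adjusted p = 0.0300) and fell by 0.63 in HET livers (adjusted p = 0.0361).

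Tnfaip8l1, a member of the TNFAIP8 family of lipid-binding proteins, was the only gene called with a negative interaction. It measured 5.89, 5.82 and 6.00 in KO livers on HFD, against 6.80, 6.67 and 6.76 in HET livers on HFD. Its values on NC were 5.79, 5.70 and 5.90 in KO livers, against 5.19, 4.97 and 5.53 in HET livers. The KO groups overlapped each other, while the HET groups lay above them on HFD and below them on NC. The difference was -0.84 on HFD and 0.57 on NC (adjusted p = 0.00227 and 0.0493), an interaction of -1.41 ± 0.19 (limma, adjusted p = 0.0275). In HET livers it rose by 1.51 on HFD (adjusted p = 0.000492), against a difference of 0.11 in KO livers.

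Pqlc3 and Tmem79 encode multi-pass membrane proteins and were dim on these arrays. Pqlc3 measured 3.57, 3.38 and 3.30 in KO livers on HFD, against 1.84, 2.08 and 2.12 in HET livers on HFD, which is below the array medians. On NC the genotypes overlapped, at 2.81, 2.64 and 2.78 in KO livers, against 2.85, 2.85 and 2.50 in HET livers. The Pqlc3 interaction was 1.39 ± 0.18 (limma, adjusted p = 0.0272), with differences of 1.40 on HFD and 0.01 on NC. Tmem79 measured 3.53, 3.48 and 3.53 in KO livers on HFD, against 3.11, 2.98 and 2.61 in HET livers on HFD. The order was turned on NC, at 2.98, 3.03 and 2.93 in KO livers, against 3.46, 3.65 and 3.52 in HET livers. The Tmem79 interaction was 1.18 ± 0.17 (limma, adjusted p = 0.0450), with differences of 0.62 on HFD (adjusted p = 0.00835) and -0.57 on NC (adjusted p = 0.0335).

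**Figure D2:**
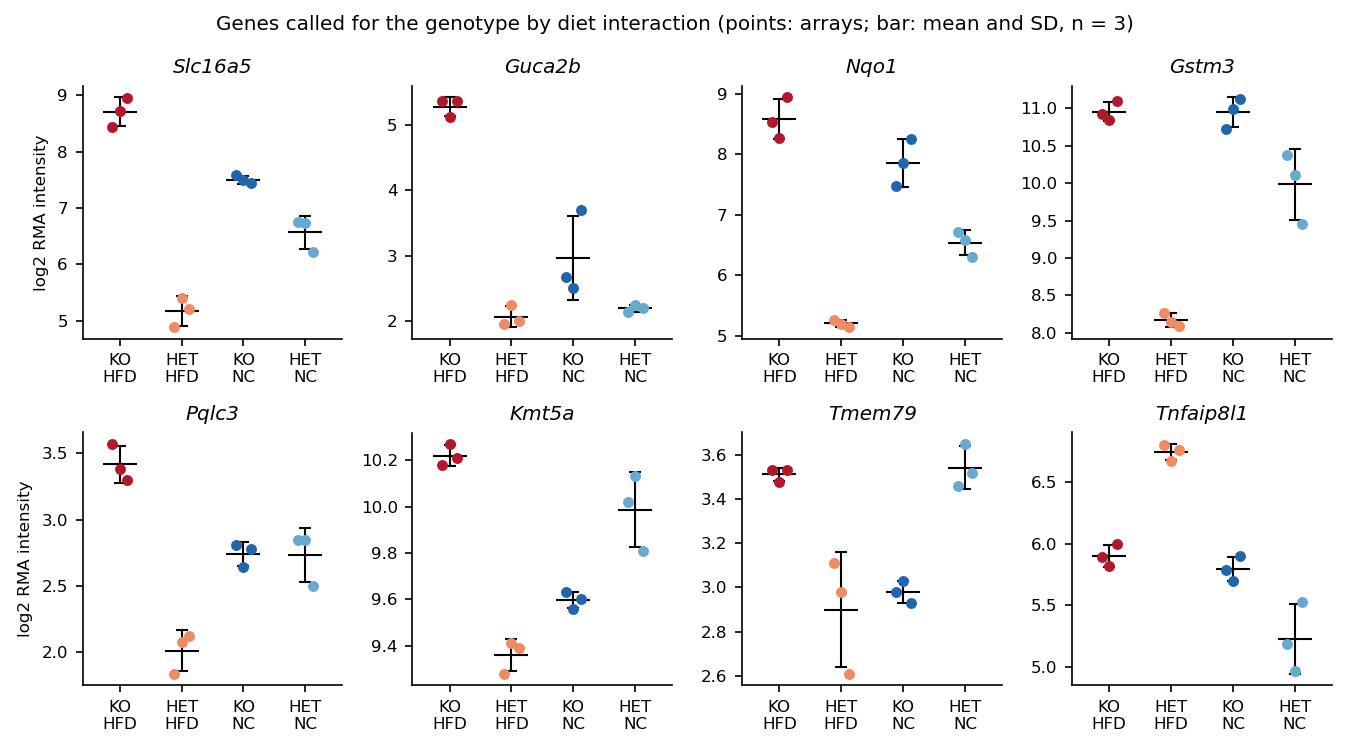
Log2 RMA intensity (vertical axis, own scale in each panel) of the 8 genes called for the interaction, with 1 point per array and the mean and SD of 3 arrays per group. Slc16a5, Nqo1 and Gstm3 were lowest in HET livers on HFD, Guca2b was high in KO livers on HFD alone, and Kmt5a, Tmem79 and Tnfaip8l1 changed the order of the genotypes between the diets.

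The count of 8 depended on single arrays. Leaving out array P1 or I1 gave 43 or 35 calls, and all 8 genes were among them. Leaving out F1, H1 or C2 gave 1 call, leaving out A2 or C4 gave 4, and leaving out F2 or H2 gave 0 with limma, with 1891 and 1794 genes at an unadjusted p under 0.05. Slc16a5 passed in 10 of the 12 leave-outs (adjusted p = 0.0533 without F2 and 0.0526 without H2), Kmt5a in 7, Pqlc3 in 6, Tnfaip8l1 and Tmem79 in 4, Guca2b and Nqo1 in 3 and Gstm3 in 2. No leave-out turned the sign of any of the 8 interactions, which follows from choosing them by p on these same arrays. Fitting only the 12 arrays of the 4 groups again gave 8 calls, 6 of them among these, and Gstm3 and Tmem79 did not pass (limma, adjusted p = 0.069 and 0.0681). With the first character of each array name taken as a random block, 5 of the 8 passed, and Nqo1, Gstm3 and Tmem79 did not (limma, adjusted p = 0.0655 for each). All KO arrays on HFD have the letter C, and no letter occurs in more than 1 group. The block therefore cannot tell an effect of the letter from that of the group. After a second quantile normalization Nqo1 and Gstm3 did not pass either (adjusted p = 0.0504 for each). Across the leave-outs the interaction ranged from 2.47 to 2.78 for Slc16a5, from 1.85 to 2.25 for Nqo1, from 1.62 to 2.09 for Gstm3, from 2.22 to 2.81 for Guca2b and from 1.18 to 1.33 for Kmt5a. Age was unequal as well. KO mice were on average 5.17 weeks older than HET mice on HFD and 13.3 weeks older on NC, so the interaction carries an age contrast of -8.13 weeks, and an effect of that contrast and the interaction cannot be told apart.

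Next in order were 12 genes that shared an adjusted p of 0.0544 and did not pass. Abcc4 encodes the efflux pump MRP4, which exports bile acids and conjugates across the hepatocyte's basolateral membrane. It measured 8.12, 8.09 and 8.53 in KO livers on HFD, against 4.82, 4.79 and 4.72 in HET livers on HFD. On NC the values were 7.13, 7.67 and 7.85 in KO livers, against 5.96, 6.08 and 5.76 in HET livers. KO lay above HET on both diets without overlap, by 11.1-fold on HFD and 3.06-fold on NC, and the interaction was 1.85 ± 0.29 (95% interval 1.22 to 2.49). Like Nqo1 and Slc16a5, Abcc4 fell on HFD in HET livers (by 1.15, adjusted p = 0.0496).

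Onecut1, also called HNF6, is a hepatocyte transcription factor and had the largest positive interaction of all genes, 3.52 ± 0.57 (limma, adjusted p = 0.0544). It measured 8.19, 8.36 and 7.43 in KO livers on HFD, against 7.65, 7.78 and 6.35 in HET livers on HFD, and these ranges overlapped. On NC the levels were 6.22, 6.04 and 5.87 in KO livers, against 9.10, 9.41 and 7.98 in HET livers, with no overlap. The genotype difference was thus -2.78 on NC (adjusted p = 0.0027), and 0.73 on HFD, which did not pass (adjusted p = 0.333). In the HET groups, arrays B2 (HFD) and P1 (NC) were more than 1 log2 unit below the others of their group.

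Ect2, a guanine nucleotide exchange factor needed for cytokinesis, measured 6.60, 7.13 and 6.79 in KO livers on HFD, against 3.45, 4.22 and 3.13 in HET livers on HFD. On NC it measured 5.91, 6.57 and 6.82 in KO livers, against 5.38, 5.81 and 5.74 in HET livers. KO lay above HET on both diets, and Ect2 fell by 2.04 on HFD in HET livers (adjusted p = 0.0106). Its interaction was 2.45 ± 0.40 (limma, adjusted p = 0.0544). Sox4, a developmental transcription factor, had an interaction of 2.25 ± 0.38 (adjusted p = 0.0544). Its values were 6.21, 6.38 and 5.90 in KO livers on HFD and 2.40, 2.98 and 3.67 in HET livers on HFD. On NC the Sox4 values were 4.84, 5.34 and 5.25 in KO livers and 4.54, 4.01 and 4.18 in HET livers. A second Sox4 probe set, dim at a mean of 1.82, gave an interaction of 0.56 ± 0.25 (limma, unadjusted p = 0.0416).

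Further positive interactions at adjusted p = 0.0544 were 0.90 ± 0.14 for Acsl4, which activates arachidonic acid, 1.24 ± 0.20 for the mitochondrial carrier Slc25a30 and 1.68 ± 0.28 for Ctse, the aspartic protease cathepsin E. Slc25a30 and Ctse rose on HFD in KO livers, by 1.21 and 1.99 (adjusted p = 0.00275 and 0.0012), and their differences in HET livers were -0.03 and 0.31. On the negative side, the protease inhibitor gene Serpina1e had an interaction of -1.47 ± 0.24 (adjusted p = 0.0544). It measured 8.63, 9.06 and 8.90 in KO livers on HFD, below all other groups, against 10.96, 10.69 and 11.37 in HET livers on HFD. On NC Serpina1e measured 10.73, 10.78 and 10.54 in KO livers, against 11.54, 11.40 and 11.13 in HET livers. It belongs to a family of near-identical copies, so its signal may be shared with them.

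Fam13a had an interaction of -1.11 ± 0.19 (adjusted p = 0.0544), with a difference of -0.30 on HFD and 0.81 on NC. For Junb, a component of the AP-1 factor, the interaction was -1.70 ± 0.30, and for the autophagy regulator Eva1a it was -1.05 ± 0.18 (adjusted p = 0.0567 for each). A second Eva1a probe set, dim at a mean of 2.16, gave -0.21 ± 0.22 (limma, unadjusted p = 0.357). Ces2a, a carboxylesterase, fell on HFD in both genotypes, by 2.09 in KO livers and 1.13 in HET livers (adjusted p = 7.32e-06 and 0.00142), and its interaction was -0.96 ± 0.17 (adjusted p = 0.0699). Interactions of the sodium channel subunit Scnn1a (-1.21), the water channel Aqp4 (-1.50), the retinol dehydrogenase Rdh16f2 (-1.17) and the Akt phosphatase Phlpp1 (-0.75) had adjusted p-values of 0.107 to 0.128. Aqp4 rose by 1.73 on HFD in HET livers (adjusted p = 0.00432), against a difference of 0.23 in KO livers.

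**Figure D3:**
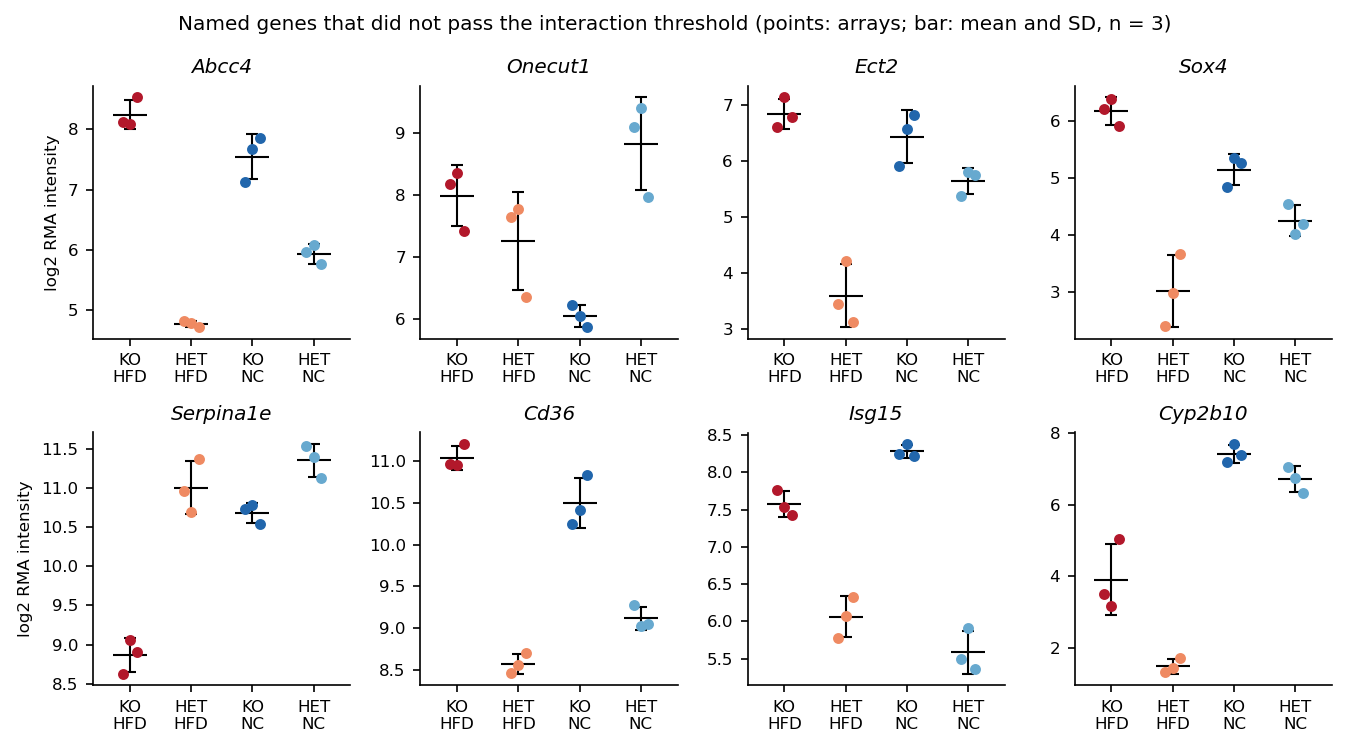
Log2 RMA intensity (vertical axis, own scale in each panel) of 8 named genes that did not pass the interaction threshold, with 1 point per array and the mean and SD of 3 arrays per group. Abcc4, Ect2, Sox4 and Cd36 show a wider gap between KO and HET on HFD than on NC, Isg15 a narrower one, and Onecut1 is low in KO livers on NC.

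The 2187 genes at an unadjusted p under 0.05 took 3 shapes. In 562 of them (25.7%) the genotype difference had the same sign on both diets and was larger on HFD, in 122 (5.58%) it had the same sign and was smaller on HFD, and in 1503 (68.7%) the signs were opposite. Among all genes these shares were 34.8%, 25.0% and 40.2%. The 8 called genes divided into 5 with a larger difference of the same sign on HFD and 3 with opposite signs. These shares follow in part from choosing genes by the interaction and are given as a description.

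NRF2 is a transcription factor that is held inactive until oxidants or electrophiles modify its partner KEAP1, after which it switches on genes for quinone reduction, glutathione synthesis and conjugation. Of 20 measured NRF2 targets, 18 had a positive interaction and 2 a negative one, with a median of 0.40 (0.23 without array H1), against 50.1% positive and a median of 0.000906 over all genes. Gstm3 and Nqo1 passed, and 8 of the 20 had an unadjusted p under 0.05, all positive, where 5.26% of all genes did. The lists were chosen with earlier results of these data known, and all genes include dim ones. Shares set beside those of all genes, here and for the lists below, are therefore a description. On HFD 13 of the 20 were called higher in KO livers and on NC 5 were, where 5.5% and 1.44% of all genes were, with a median difference of 0.69 on HFD and 0.30 on NC. The mean log2 level of the list was 8.76 to 8.84 in KO livers on HFD, against 7.44 to 7.61 in HET livers on HFD. On NC it was 8.29 to 8.75 in KO livers, against 7.81 to 8.01 in HET livers. The lowest group was thus HET on HFD. Gstm1, another mu-class transferase, measured 9.22, 9.30 and 9.28 in KO livers on HFD, against 7.98, 8.26 and 8.41 in HET livers on HFD. Its interaction of 0.90 ± 0.19 did not pass (adjusted p = 0.149). Nfe2l2, which encodes NRF2 itself and was named after its value was seen, had an interaction of -0.09 (adjusted p = 0.915).

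Interferon-stimulated genes are switched on by type I interferon through the factor ISGF3 and encode antiviral effectors and nucleic acid sensors. They were the list with the most negative median interaction of the 36 lists, and remained so in 8 of the 12 leave-outs. Of 35 measured members, 31 had a negative interaction and 4 a positive one, with a median of -0.65. None passed at an adjusted p under 0.05, and 18 had an unadjusted p under 0.05 in limma, all negative, where 4.6% of all genes did. On HFD 29 of the 35 were called higher in KO livers and on NC 32 were, where 5.5% and 1.44% of all genes were. The median differences were 1.27 and 1.70. The mean level of the list was 7.16 to 7.38 in KO livers on HFD, against 5.75 to 6.14 in HET livers on HFD. On NC it was 7.47 to 7.58 in KO livers, against 5.51 to 5.64 in HET livers. Neither KO and HET on HFD nor KO and HET on NC overlapped, and the KO level was lower and the HET level higher on HFD than on NC.

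Isg15, a ubiquitin-like modifier, measured 7.76, 7.53 and 7.43 in KO livers on HFD, against 5.78, 6.07 and 6.33 in HET livers on HFD. Its values on NC were 8.24, 8.38 and 8.22 in KO livers, against 5.49, 5.91 and 5.36 in HET livers. KO lay above HET by 2.86-fold on HFD and 6.47-fold on NC, with no overlap on either diet. The interaction was -1.18 ± 0.24 (95% interval -1.69 to -0.67; limma, adjusted p = 0.124). Dhx58, which encodes the RNA sensor LGP2, had 7.26, 7.19 and 6.98 in KO livers on HFD, against 5.74, 6.37 and 5.84 in HET livers on HFD. On NC Dhx58 had 7.72, 7.77 and 7.71 in KO livers, against 5.64, 5.14 and 5.39 in HET livers, and its interaction was -1.18 ± 0.24 (adjusted p = 0.129). For Irf7, the factor that amplifies interferon production, the interaction was -1.19 ± 0.26 (adjusted p = 0.157), with differences of 1.88 on HFD and 3.08 on NC.

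**Figure D4:**
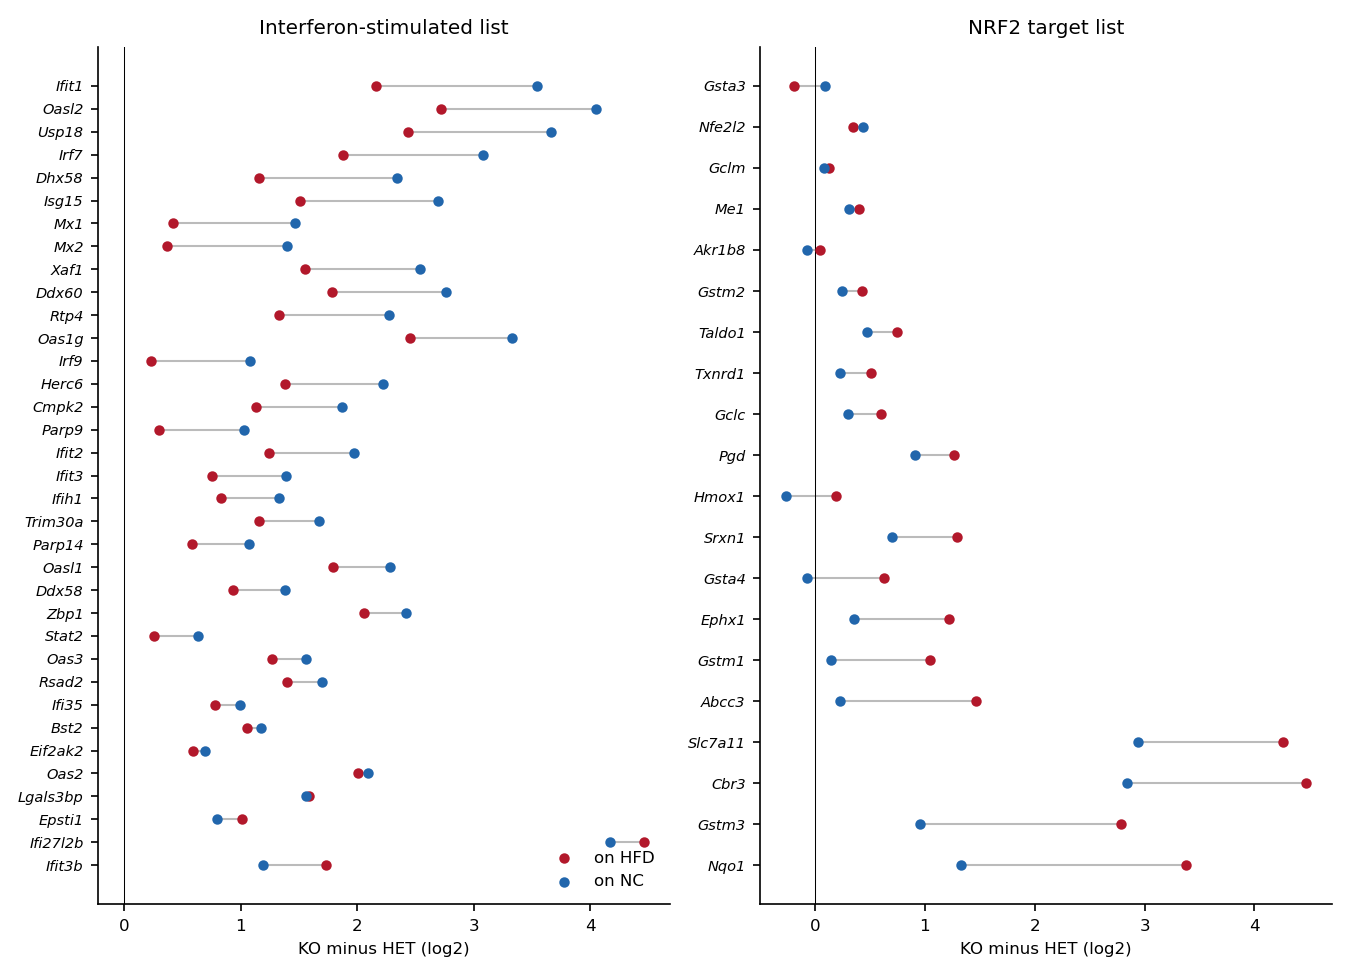
KO minus HET difference (horizontal axis, log2) on HFD (red) and on NC (blue) for each measured member of the interferon-stimulated list (left, 35 genes) and the NRF2 target list (right, 20 genes). The HFD point lies left of the NC point for 31 of 35 interferon-stimulated genes and right of it for 18 of 20 NRF2 targets.

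Promoter sequences of Isg15 and Nqo1 are shown because 2 short response motifs go with the names of their lists, and that of Abcc4, a bile acid list gene outside both, because it holds 1 of the motifs. They are RefSeq sequences of GRCm38.p6 that run from 250 bases before to 50 bases after the start, written in the direction of transcription, with motif matches in capitals. Slc16a5 has no entry in the table used.

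Isg15 (chr4:156200769-156201068, minus strand): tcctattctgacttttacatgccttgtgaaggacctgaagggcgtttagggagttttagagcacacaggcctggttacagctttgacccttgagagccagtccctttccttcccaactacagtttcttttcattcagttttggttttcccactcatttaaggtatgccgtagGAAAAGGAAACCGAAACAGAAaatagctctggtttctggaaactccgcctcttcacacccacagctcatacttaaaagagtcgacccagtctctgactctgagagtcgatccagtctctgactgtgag

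Abcc4 (chr14:118676882-118677181, minus strand, 1 of 2 starts): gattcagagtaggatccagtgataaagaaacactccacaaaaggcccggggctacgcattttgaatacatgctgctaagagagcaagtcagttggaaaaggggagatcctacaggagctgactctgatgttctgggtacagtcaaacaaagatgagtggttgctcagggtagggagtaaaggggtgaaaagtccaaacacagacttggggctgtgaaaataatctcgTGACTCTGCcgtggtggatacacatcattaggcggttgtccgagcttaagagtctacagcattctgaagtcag

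Nqo1 (chr8:107403156-107403455, minus strand): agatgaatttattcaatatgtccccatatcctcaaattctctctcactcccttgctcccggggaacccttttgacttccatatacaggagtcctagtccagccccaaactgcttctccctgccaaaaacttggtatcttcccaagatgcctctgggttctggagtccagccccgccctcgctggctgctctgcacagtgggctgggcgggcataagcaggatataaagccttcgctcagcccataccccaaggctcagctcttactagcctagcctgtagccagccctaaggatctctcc

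The motif GAAANNGAA, a core of the interferon-stimulated response element, was searched on both strands. Isg15 held 3 overlapping matches, which start 78, 72 and 66 bases before the transcription start. Irf7, of the same list, held none. A match was found in 14 of the 25 interferon-stimulated list genes with a promoter in the table (56.0%), against 9.76% of all 27025 genes. The motif TGACNNNGC, a core of the antioxidant response element, was found in 7 of 16 NRF2 list genes (43.8%), against 14.0% of all genes. In Abcc4 it starts 23 bases before the start shown. Of the 12 genes with the smallest p and a positive interaction, 10 had a promoter, and Abcc4 alone held it (10.0%). Irf7, of the interferon-stimulated list, also held 1 match to it. None of the 7 called genes with a promoter held it in this window, Nqo1 and Gstm3 among them, which says only that these letters are not in these 300 bases.

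Of 23 lipogenesis genes, 15 had a negative interaction, 7 of them at an unadjusted p under 0.05, where 4.6% of all genes did. The median was -0.16, and it lay between -0.26 without array H2 and 0 without array P1. Median diet differences were 0.25 in KO livers and 0.45 in HET livers. Khk, which encodes the fructose-phosphorylating ketohexokinase, measured 10.70, 10.70 and 10.73 in KO livers on HFD, against 10.92, 10.79 and 10.55 in HET livers on HFD. On NC the values were 10.66, 10.47 and 10.53 in KO livers, against 9.66, 9.89 and 10.18 in HET livers. Khk rose by 0.85 on HFD in HET livers (adjusted p = 0.0326), against a difference of 0.15 in KO livers, and its interaction of -0.69 ± 0.20 did not pass (adjusted p = 0.278). The acetyl-CoA carboxylase gene Acacb had -1.13 ± 0.31 (adjusted p = 0.265), and the acetyl-CoA synthetase gene Acss2 -1.29 ± 0.42 (adjusted p = 0.341).

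Sterol synthesis genes had a negative interaction in 18 of 19 cases, with a median of -0.23, and none had an unadjusted p under 0.05. The list's mean level was 9.11, 8.87 and 9.02 in KO livers on HFD, against 9.54, 9.58 and 8.73 in HET livers on HFD. On NC it was 8.87 to 9.07 in KO livers, against 8.92 to 9.06 in HET livers. Array B2 of HET on HFD was thus the lowest of all 12 and the other HET arrays on HFD the highest. Without B2 the median interaction of the list was -0.59, and without A2 it was -0.08. Fdps, farnesyl diphosphate synthase, followed the same arrays, at 10.17, 10.18 and 9.35 in HET livers on HFD.

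Fatty acid uptake and storage genes had positive interactions in 14 of 21 cases, 4 of them at an unadjusted p under 0.05, where 5.26% of all genes did. The median was 0.34, but 0.06 without array B2, 0.21 without P1 and 0.54 without A2. Cd36, the fatty acid translocase, measured 10.96, 10.95 and 11.20 in KO livers on HFD, against 8.47, 8.56 and 8.70 in HET livers on HFD. On NC the levels were 10.25, 10.41 and 10.83 in KO livers, against 9.28, 9.03 and 9.05 in HET livers. KO livers were 5.49-fold higher on HFD and 2.60-fold higher on NC without overlap, and the interaction of 1.08 ± 0.21 did not pass (limma, adjusted p = 0.106). The lipoprotein receptor gene Vldlr had an interaction of 1.58 ± 0.30 (adjusted p = 0.0932), with a difference of 1.32 on HFD (adjusted p = 0.00238) and -0.26 on NC. Apoa4, an apolipoprotein of triglyceride-rich particles, had -1.58 ± 0.44 (adjusted p = 0.276) and rose by 3.14 on HFD in HET livers (adjusted p = 0.000948).

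Among 20 genes of PPARα-driven fatty acid oxidation, 14 interactions were positive, 5 of them and no negative one at an unadjusted p under 0.05. Of all genes, 5.26% were positive and 4.6% negative at that p. The median was 0.14, but 0.03 without array P1, 0.09 without B2 and 0.24 without F2. Ehhadh, the peroxisomal bifunctional enzyme, measured 11.47, 11.34 and 11.64 in KO livers on HFD, against 10.14, 10.12 and 9.97 in HET livers on HFD. On NC it measured 10.96, 10.87 and 11.23 in KO livers, against 10.22, 10.17 and 10.32 in HET livers. KO lay above HET on both diets without overlap, and the interaction was 0.63 ± 0.17 (adjusted p = 0.267). Cyp4a31, a fatty acid omega-hydroxylase, had 1.41 ± 0.37 (adjusted p = 0.239), and the acyl-CoA thioesterase gene Acot2 had 1.51 ± 0.47 (adjusted p = 0.323), with array B2 at 7.47 against 8.98 and 8.84 for the other HET livers on HFD.

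Sex-biased genes of the mouse liver are set by the pattern of growth hormone release, through STAT5 and BCL6. All mice were male. Of 19 male-biased genes, 13 had a negative interaction, with a median of -0.54, which lay between -0.88 without array C3 and -0.22 without P1 and was -0.36 to -0.24 without F1, F2, B2, C4 or H2. On HFD 12 were called lower and 2 higher in KO livers, and on NC 4 were called lower and 1 higher, where 2.06% of all genes were called lower on HFD and 0.478% on NC. Of 23 female-biased genes, 13 had a positive interaction, a share close to that of all genes, and 7 of them had an unadjusted p under 0.05, where 5.26% of all genes did. Their median was 0.30, but 0 without array P1, 0.16 without B2 and 0.50 without F1. The male-biased major urinary protein gene Mup21 measured 5.87, 6.58 and 5.80 in KO livers on HFD, against 8.68, 8.63 and 7.78 in HET livers on HFD. On NC the 2 genotypes overlapped, and its interaction was -1.64 ± 0.45 (adjusted p = 0.268).

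Bcl6, a repressor of female-biased genes, measured 6.06, 5.33 and 5.83 in KO livers on HFD, against 8.81, 7.18 and 9.18 in HET livers on HFD. Its values on NC were 7.97, 8.74 and 7.33 in KO livers, against 6.10, 5.88 and 8.50 in HET livers. Bcl6 was lower in KO livers on HFD (adjusted p = 0.0255), the genotypes overlapped on NC, and the interaction was -3.84 ± 0.92 (limma, adjusted p = 0.192). For Cish, a feedback inhibitor induced by STAT5, the interaction was 2.20 ± 0.53 (adjusted p = 0.203), with a difference of 1.39 on HFD (adjusted p = 0.0415) and -0.81 on NC.

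Of 25 xenobiotic cytochrome and related genes, 12 interactions were positive and 13 negative, with a median of -0.07. Cyp2b10, the main target of the receptor CAR, had the steepest diet difference among the named genes. It measured 3.52, 3.17 and 5.05 in KO livers on HFD, against 1.32, 1.45 and 1.73 in HET livers on HFD. On NC the values were 7.20, 7.70 and 7.39 in KO livers, against 7.06, 6.76 and 6.33 in HET livers. Cyp2b10 fell on HFD by 3.51 in KO livers and by 5.22 in HET livers (adjusted p = 0.00179 and 8.64e-05). KO livers were higher on HFD (difference 2.41, adjusted p = 0.00195), and the interaction of 1.70 ± 0.53 did not pass (adjusted p = 0.323). The HET values on HFD are below the array medians. Cyp2c29 fell by 1.63 on HFD in KO livers (adjusted p = 0.00241), with an interaction of -1.02 ± 0.26 (adjusted p = 0.226). A second Cyp2c29 probe set, dim at a mean of 0.99, gave 0.16 ± 0.20 (limma, unadjusted p = 0.427).

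Of 20 bile acid genes, 13 interactions were negative, with a median of -0.27 (-0.18 without array B1 and -0.48 without P1). Abcc4 and the related efflux pump Abcc3 (1.24 ± 0.43, adjusted p = 0.375) were positive, and Nr0b2, the bile acid-induced repressor SHP, was -1.02 ± 0.37 (adjusted p = 0.389). Abcc3 again turned on array B2, which had 7.59 against 9.11 and 9.08 for the other HET livers on HFD. Without B2 its interaction was 0.74. Pericentral genes, which depend on WNT signalling around the central vein, were negative in 13 of 16 cases, with a median of -0.39 (-0.22 without array A2 and -0.59 without B2), and periportal genes were evenly divided, 7 positive and 7 negative.

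Cell cycle genes had a positive interaction in 29 of 37 cases, with a median of 0.30 (0.10 without array H1 and 0.53 without I1), and 7 of them had an unadjusted p under 0.05, where 5.26% of all genes did. They were called higher in KO livers for 25 of 37 genes on HFD and for 12 on NC, against 5.5% and 1.44% of all genes. The list's mean level was 4.55 to 4.68 in KO livers on HFD, against 3.38 to 3.50 in HET livers on HFD. On NC it was 4.10 to 4.81 in KO livers, against 3.54 to 3.74 in HET livers. Mcm5, a subunit of the replicative helicase, measured 5.47, 5.97 and 5.22 in KO livers on HFD, against 3.20, 3.38 and 3.85 in HET livers on HFD. Its interaction was 1.52 ± 0.39 (adjusted p = 0.234). Targets of p53 were positive in 16 of 21 cases, with a median of 0.35 (0.22 without array B2). Mdm2, which encodes the ubiquitin ligase of p53, had 0.45 ± 0.18 (adjusted p = 0.434), with 8.01, 8.20 and 7.90 in KO livers on HFD and 7.47, 7.46 and 7.53 in HET livers on HFD.

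Fetal liver genes were positive in 14 of 16 cases, with a median of 0.42 (0.71 without array C3 and 0.86 without I1). Apela, a secreted peptide ligand of the apelin receptor, measured 6.63, 6.82 and 7.38 in KO livers on HFD, against 1.66, 1.36 and 1.39 in HET livers on HFD. On NC the levels were 4.39, 5.43 and 6.05 in KO livers, against 1.89, 2.16 and 1.29 in HET livers. The HET values lie below the array medians on both diets, and the KO values were clearly measured on both. The interaction was 1.96 ± 0.49 (adjusted p = 0.226). Ly6d, a GPI-anchored surface protein, differed by 5.69 on HFD and 4.77 on NC between the genotypes (adjusted p = 1.06e-06 and 2.5e-06), and its interaction was 0.92 ± 0.40 (adjusted p = 0.482).

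Extracellular matrix genes had a positive interaction in 33 of 39 cases, with a median of 0.31 (0.17 without array H1 and 0.18 without F1). The profibrotic ligand Tgfb2 measured 4.83, 4.78 and 5.21 in KO livers on HFD, against 3.36, 3.51 and 3.15 in HET livers on HFD. On NC it measured 3.43, 3.67 and 3.96 in KO livers, against 3.22, 3.28 and 2.93 in HET livers. Tgfb2 rose by 1.25 on HFD in KO livers (adjusted p = 0.0117), and its interaction of 1.06 ± 0.24 did not pass (limma, adjusted p = 0.174). Fn1, which encodes fibronectin, had an interaction of -0.35 ± 0.14 (adjusted p = 0.430).

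Markers of other liver cells were set beside these lists, since fewer cells of a type and less RNA per cell cannot be told apart in whole liver. Lymphocyte markers had the most positive median interaction of the 36 lists, 0.62, with 16 of 19 positive. Of these, 5 had an unadjusted p under 0.05, where 5.26% of all genes did. Without array F1 the median of the list was 0.25, and the list ranked first in 9 of the 12 leave-outs. Their mean level was 3.25 to 3.35 in KO livers on HFD, against 2.63 to 2.84 in HET livers on HFD. On NC it was 2.72 to 2.93 in KO livers, against 2.58 to 3.35 in HET livers, with array F1 at the top. Kupffer cell markers were positive in 10 of 12 cases (median 0.34, and 0.14 without array F1 or 0.53 without P1). None of the 12 had an unadjusted p under 0.05. On HFD 1 of them was called higher and 2 lower in KO livers, and on NC 1 was called lower. Recruited macrophage markers were positive in 15 of 18 (median 0.27, and 0.11 to 0.42 over the leave-outs). Stellate cell markers were evenly divided, 8 and 8 (median -0.02), neutrophil markers lay at or below the array medians (1.73 to 2.03 over the 4 groups), and endothelial markers had a median of 0.02. Hepatocyte identity genes were negative in 15 of 23 cases, with a median of -0.07. On HFD 5 of the 23 were called lower in KO livers and none higher, and on NC 2 were called lower. Of all genes, 2.06% were called lower on HFD and 0.478% on NC. The part of these cell types in the other results was not tested.

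Core clock genes and their outputs were negative in 11 of 17 cases, with a median of -0.42 (-0.69 without array P1 and -0.23 to -0.21 without F1, F2 or A2). Bhlhe41, a clock-linked repressor, measured 4.24, 4.44 and 4.72 in KO livers on HFD, against 6.57, 5.12 and 5.21 in HET livers on HFD. Its values on NC were 4.98, 5.31 and 5.25 in KO livers, against 3.71, 3.05 and 4.55 in HET livers. Neither diet showed an overlap, with KO below HET on HFD and above it on NC, and the interaction was -2.58 ± 0.54 (limma, adjusted p = 0.132). Nr1d1, which encodes the clock repressor REV-ERBα, had -1.41 ± 0.33 (adjusted p = 0.189). The labels do not state the hour of tissue collection, and its part in the other results was not tested. Among partners of lamin at the nuclear envelope there were 8 positive and 9 negative interactions, a median of -0.05 and none at an unadjusted p under 0.05.

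**Figure D5:**
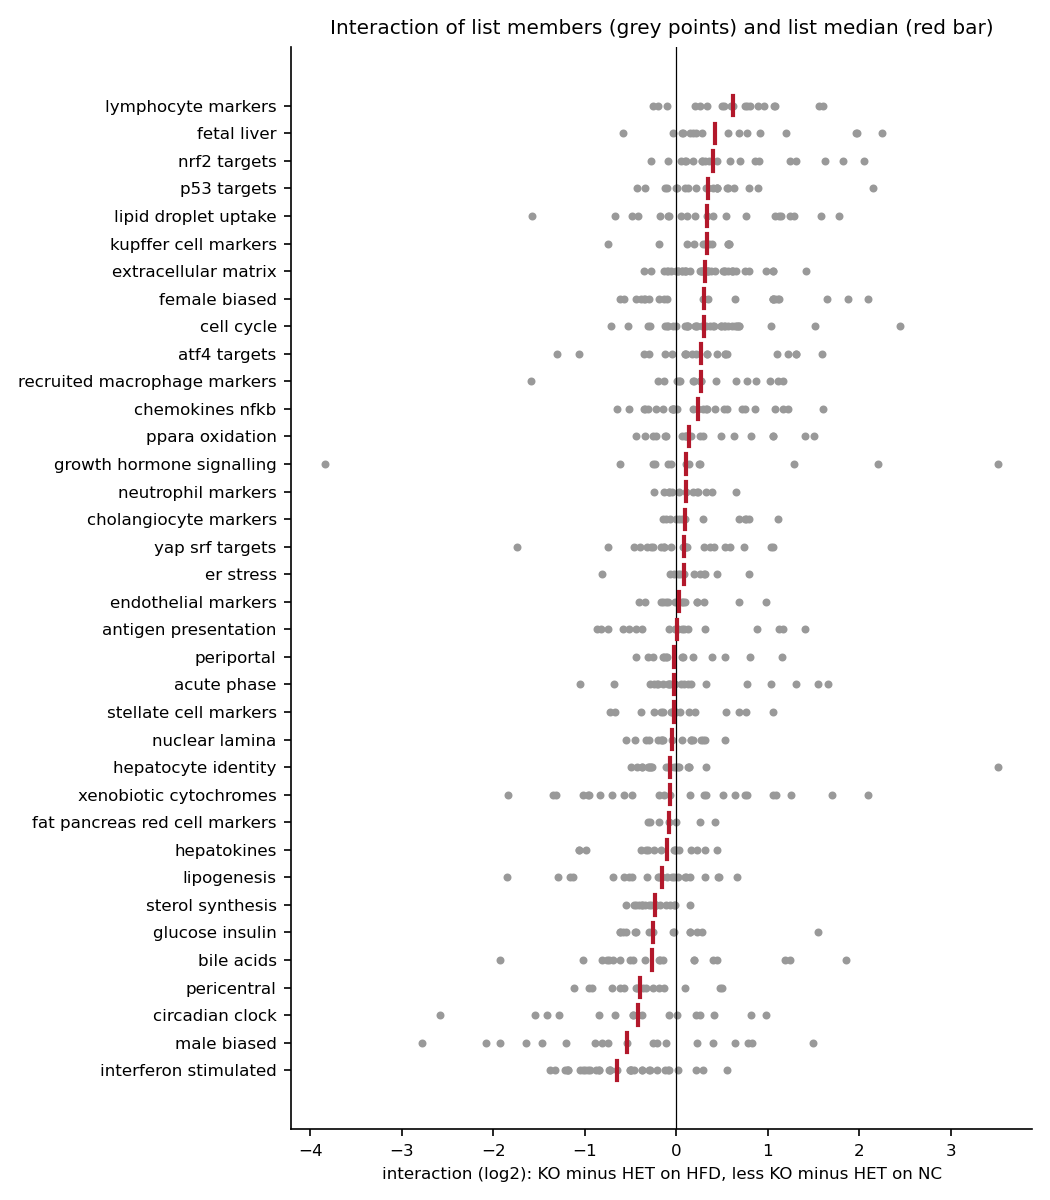
Interaction (horizontal axis, log2) of each measured member of 36 gene lists (grey points), with the list median as a red bar, ordered by median. Medians run from -0.65 for the interferon-stimulated list to 0.62 for lymphocyte markers, and single members reach -3.84 (Bcl6) and 3.52 (Onecut1).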

How the data were processed

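Liver RNA of 14 mice, 1 per array, was measured on Affymetrix whole-transcript arrays. The authors deposited 1 log2 intensity per probe set and array. RMA, a method that subtracts background, equalises probe quantiles and combines probes, is named with limma in the submitters' processing notes, both without versions. No further scaling was applied. Of 41345 probe sets, 23521 carry 1 gene symbol in the platform annotation, 1814 several and 16010 none. Each gene was represented by its brightest probe set over all 14 arrays, and all 22180 genes were tested whatever their level. The number of arrays limits the precision, and arrays may carry signal from close relatives of a gene.

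Group means were estimated in 1 linear model over the 14 arrays with limma 3.58.1 in R 4.3.3 (9 residual and 3.83 prior degrees of freedom). Two-sided p-values received Benjamini-Hochberg adjustment across the 22180 genes separately for every contrast, and calls were made at an adjusted p under 0.05. Errors beside interactions are SEs. Named genes are the called genes, the 12 smallest interaction p-values in each direction without predicted, clone-named, small RNA or dim genes, the 3 smallest p-values in each of 36 gene lists, and Lmna. Members and lists were chosen with earlier results of these data known. Lists hold 784 entries, of which 711 were measured, and a list's level is the mean log2 value of its members. The fit was tested on simulated data for 22180 genes with 50 genes at each of 4 interaction sizes. Alternatives covered the arrays fitted, array weights, the variance prior, a filter on dim genes, the probe sets, scaling, a block for the letter in array names, age and each array left out.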

Additional observations from a re-analysis of the deposited data

Results flagged for a closer look

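The interaction term was past the threshold for 8 genes, which means that the KO minus HET difference on HFD differed from that on NC beyond the spread between mice. The difference between diets was 2.61 for Slc16a5, 2.45 for Guca2b, 2.05 for Nqo1, 1.82 for Gstm3, 1.39 for Pqlc3, 1.25 for Kmt5a, 1.18 for Tmem79 and -1.41 for Tnfaip8l1 on the log2 scale. Pqlc3 and Tmem79 are dim on all arrays, and Guca2b is dim in all HET livers.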

How the results depend on the processing

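The count of 8 genes depended on the processing. It was 29 with array weights, 24 with a trended and robust variance prior, 28 among the 13188 genes that passed a filter on dim genes and 20 after centring each array on its median. It was 5 with the array-name letter as a random block, where Nqo1, Gstm3 and Tmem79 lost their calls, 1 at an adjusted p under 0.01, 2187 without adjustment and 35 at an adjusted p under 0.1, an alternative chosen after seeing the data. Leaving out 1 array gave 0 to 43 calls. With age in weeks as a covariate it was 206, of which 117 were positive, 89 negative and 3 among the 8. Those 3 were Slc16a5 (interaction 4.26), Gstm3 (3.57) and Kmt5a (2.02), all larger than without age. The others did not pass: Nqo1 (3.53, limma, adjusted p = 0.0633), Pqlc3 (2.12, 0.0693), Tnfaip8l1 (-2.07, 0.0923), Tmem79 (1.26, 0.327) and Guca2b (1.80, 0.518). All KO mice on a diet had 1 age, so the age slope came from HET and WT mice alone, and the median SE of the interaction was 0.607 with it and 0.218 without it. Of the 122 named genes, none turned its sign under any other alternative, and under the age covariate 13 did: Ebp (0.83), Nr0b2 (0.24), Polk (-0.36), Fabp5 (1.87), Ncr1 (-0.74), Camp (-0.08), Mmp8 (-0.09), Muc1 (-0.12), Cpa1 (0.47), Cps1 (0.13), Nr1d1 (1.19), Tor1aip2 (0.27) and Egr1 (1.84). The cause was not tested. Named genes were mostly chosen by their interaction p on these same arrays, so the kept signs are a description. The interferon-stimulated median stayed between -0.75 and -0.44 and the NRF2 median between 0.23 and 0.56 in 17 alternatives, and they were -0.80 and 1.01 with age. Some other list medians moved more when 1 array was left out: 0.25 to 0.79 for lymphocyte markers, 0.06 to 0.54 for fatty acid uptake and storage, 0.10 to 0.53 for cell cycle, 0 to 0.50 for female-biased and -0.88 to -0.22 for male-biased genes. Others moved less, among them p53 targets (0.22 to 0.41), ATF4 targets (0.17 to 0.45) and hepatocyte identity genes (-0.13 to -0.05). With age 12 of the 36 list medians turned sign, among them female-biased (-0.82), fatty acid uptake (-0.37), PPARα oxidation (-0.55) and sterol synthesis (0.21). The dim genes Pqlc3, Tmem79 and Guca2b lie close to the array medians in some groups, which limits their fold changes. No paired analysis was possible because no label ties a mouse of one group to a mouse of another. The labels do not state what the letters and digits in array names stand for.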

Other observations

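Gene groups outside the report gave further values, and no interaction among them passed at an adjusted p under 0.05. Of 22 ATF4 targets, 16 interactions were positive and 5 of these had an unadjusted p under 0.05, with a median of 0.27 (0.17 to 0.45 over the leave-outs), where 5.26% of all genes had a positive interaction at that p. Psat1, an enzyme of serine synthesis, measured 4.46, 3.58 and 4.59 in KO livers on HFD, against 2.07, 2.14 and 2.13 in HET livers on HFD, and its interaction was 1.59 ± 0.36 (limma, adjusted p = 0.166). Phgdh, which acts one step upstream of it, had -1.30 ± 0.42 (adjusted p = 0.339) with all groups dim.

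The acute phase list was divided nearly evenly, 10 positive and 12 negative. Orm2, an acid glycoprotein, measured 9.36, 9.41 and 9.71 in KO livers on HFD, against 6.58, 6.04 and 5.92 in HET livers on HFD. On NC it measured 8.85, 9.15 and 9.32 in KO livers, against 7.69, 7.57 and 7.09 in HET livers. Its interaction was 1.66 ± 0.32 (adjusted p = 0.106), and it fell by 1.27 on HFD in HET livers (adjusted p = 0.0455). Lcn2, an iron-binding lipocalin, had 1.55 ± 0.69 (adjusted p = 0.485), with array I1 at 8.61 against 6.43 and 6.56 for the other KO livers on NC.

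In the antigen presentation list 9 interactions were positive and 9 negative. H2-Eb1 and H2-Ab1 had interactions of 1.41 ± 0.39 and 1.12 ± 0.39 (adjusted p = 0.268 and 0.374), and Gbp7 had -0.87 ± 0.25 (adjusted p = 0.279). Fgf21, a hepatokine induced by PPARα, rose by 2.59 on HFD in HET livers (adjusted p = 0.0402), against a difference of 1.53 in KO livers, and its interaction was -1.06 ± 0.63 (adjusted p = 0.624). Igfbp2 fell by 1.24 on HFD in KO livers (adjusted p = 0.0340), against -0.18 in HET livers, with an interaction of -1.06 ± 0.31 (adjusted p = 0.281).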
